A study of Drosophila melanogaster with 4 samples.

Results

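Binding of GFP-tagged Ultraspiracle (Usp) was examined across the 300 kb of chromosome arm 3L, at cytological position 75C, that by definition holds the cell death genes *W* (also called *hid*), *grim*, *rpr* (reaper) and *skl* (sickle). A peak belonged to the interval when its midpoint lay between 18150000 and 18450000 of 3L in FlyBase release 5. By that rule 3 peaks were members, of 814 peaks on 3L and 3053 in the whole list. The rule used position alone and no measured value. All 3 peaks lay close together near the low-coordinate end of the interval, and the 262.3 kb that followed them to its other end held none.

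The 2 ChIP libraries and 2 input libraries came from wandering larvae of the third instar of *Drosophila melanogaster*. ChIP and input carried the same strain label, USP-GFP, with a transgene of the *usp* genomic coding region at the VK00033 landing site (genotype PBac{y[+]-attP-3B}VK00033), and sex was labelled unknown. The protocol instead describes flies of the genotype *y; bw cn sp* kept at 25 °C, and whole larvae were cross-linked in 1.8% formaldehyde for 15 min, so the cells of all larval tissues are pooled in each library. ChIP used a rabbit polyclonal antibody to GFP (ab290). The labels do not say whether the larvae also carried untagged Usp. The authors' list gives 1 score per peak for the series as a whole. No value per library was analysed here, so no peak below has a replicate mean, a spread or a test, and sequencing depth is unknown.

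Usp, a nuclear receptor related to the vertebrate RXR family, pairs with the ecdysone receptor EcR to bind DNA in the presence or absence of the steroid 20-hydroxyecdysone. Pulses of this hormone at the end of larval life start metamorphosis, during which obsolete larval tissues such as the midgut and the salivary glands are destroyed by programmed cell death. The products of *hid*, *grim*, *rpr* and *skl* share a short N-terminal motif that binds inhibitor of apoptosis proteins, chiefly Diap1, and thereby frees caspases to act. Transcription of *rpr* and *hid* in dying larval tissues is known to respond to ecdysone, and *rpr* is known as a direct target of the EcR/Usp receptor. The question put to the list was where in this interval Usp was called as bound over input in whole wandering larvae.

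In the RefSeq gene table, which is on Release 6, the genes come in the order *hid*, *grim*, *rpr*, *skl* with rising coordinate. Between *hid* and *grim* the table lists 9 genes, of which 4 code for proteins (*CG7320*, *CheA75a*, *CG5103* and *CG13700*). Between *grim* and *rpr* it lists 3, and between *rpr* and *skl* 1, all of them non-coding RNAs. Release 6 coordinates were not set against the release 5 peaks. No peak was therefore placed in a gene, a promoter, an intron or an exon, and no distance from a gene is given. For the same reason no sequence is shown for the peaks.

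The first peak ran over 227 bp, 3L:18178962-18179188, and carried the highest score of the interval, 18.45. It began 29.0 kb from the interval's start. The second, 3L:18183529-18183801, was 273 bp wide and scored 16.39. The third, 3L:18187529-18187741, was the narrowest at 213 bp and the weakest, with a score of 11.13. The score thus fell from peak to peak with rising coordinate, while the widths did not follow that order.

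The peaks lay at similar distances from each other. The centres of the first and second were 4.59 kb apart and those of the second and the third 3.97 kb apart. From the first base of the first peak to the last base of the third the group measured 8780 bp. The 3 peaks together covered 713 bp, 0.238% of the interval. Peaks elsewhere on 3L covered 1.71% of the rest of the arm, taken from its first to its last peak.

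**Figure D1:**
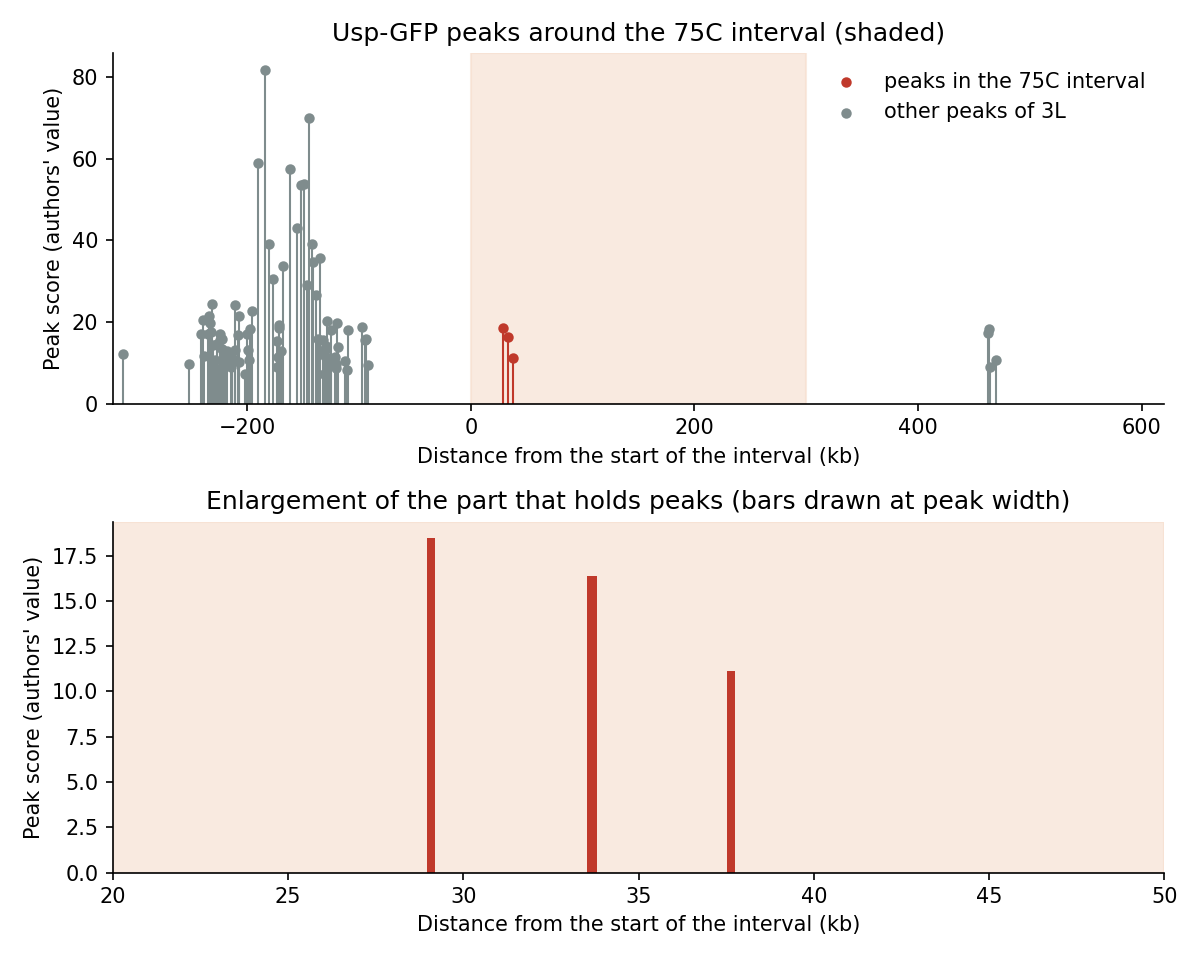
Peak scores (authors' value, no unit) by distance from the start of the 75C interval in kb, with the interval shaded; each line with a point, or bar in the enlargement, is 1 peak. The 3 peaks of the interval lie between 29.0 and 37.7 kb from its start and score 18.45, 16.39 and 11.13, with no other peak in the shaded part.

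Most of the interval was without peaks. The 3 peaks and the sequence before them took up the first 12.6% of it, and the other 87.4% lay after the third peak. The empty stretch did not end with the interval. It ran from 18187742 to 18612503, a length of 424.8 kb, and was the 9th longest of the 813 gaps between neighbouring peaks of 3L. On the other side, 120.5 kb without a peak separated the group from the peak before it, the 64th longest gap.

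The membership depends on the lower limit. Raising the lower limit past 18179075, 18183665 and 18187635, the midpoints of the 3 peaks, would remove the members in turn. These midpoints lie between 29.0 and 37.7 kb from the interval's start, while widening the interval would add peaks only at larger distances. The last peak outside it on the low side, 18058200 to 18058502, scored 9.46 and ended 91.5 kb before the interval's start. The first peak outside it on the high side, 18612504 to 18612811, scored 17.45 and began 162.5 kb after its end. That peak was followed by 18613261 to 18613973, which scored 18.42. Peak numbers in the deposited list ran from 1 to 3053 without a break, so no numbered entry was skipped between these peaks. Whether peaks were filtered out before numbering cannot be told, since such a list would also run without a break.

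**Figure D2:**
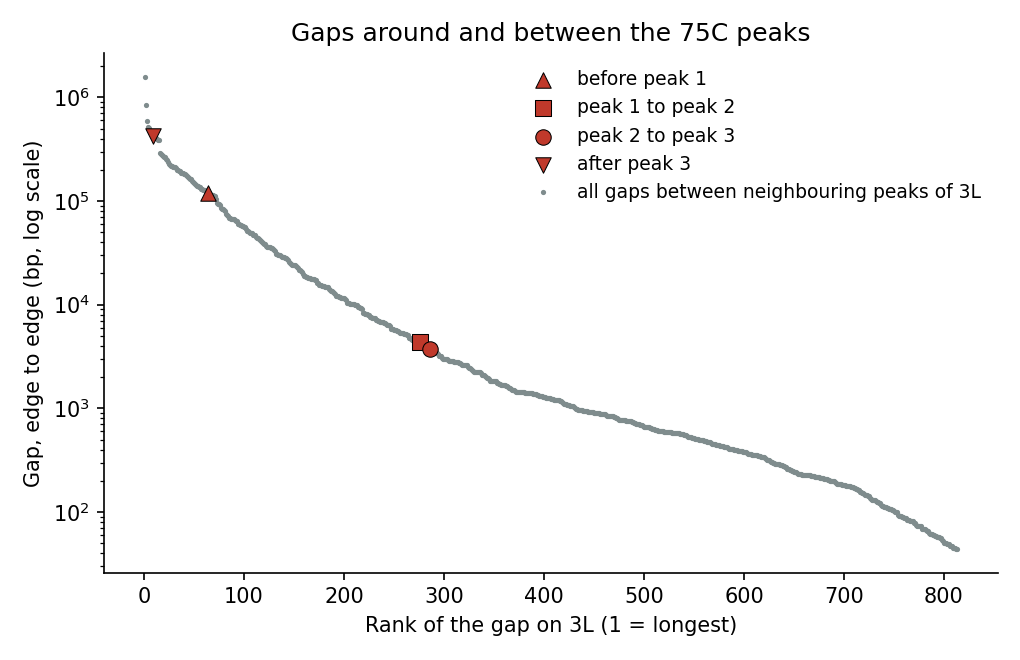
Edge-to-edge gap in bp (log axis) against its rank among the 813 gaps between neighbouring peaks of 3L; small points are all gaps and large symbols the 4 that touch the 75C peaks. The gap after the third peak ranks 9th and the gap before the first 64th, while the gaps of 4340 and 3727 bp between the peaks rank 276th and 286th.

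The interval had fewer peaks than the arm's mean, but not than many other stretches of the arm. It held 10.0 peaks per Mb, against 33.6 per Mb over the rest of 3L, a ratio of 0.297. Peaks were unevenly spread along the arm, so the interval was also set beside 300 kb windows laid end to end from its limits along 3L. Of all 81 windows, the interval included, 51 held more than 3 peaks, 5 held 3, and 25 held fewer. The median window held 6. No peak at all was found in 13 windows, and 7 of these were among the last 8 windows at the high-coordinate end of the arm, from 3.9 Mb after the interval's start. Among the other 73 windows, a division made after the values were seen, 50 held more than 3 peaks, 5 held 3 and 18 fewer, with a median again of 6. The count at 75C was therefore below the median of the arm, and a sizeable part of the windows held no more.

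Its neighbours on the 2 sides differed from each other. The 300 kb just before the interval, 17850000 to 18150000, held 79 peaks, the most of any window, with a median score of 15.66 and a median width of 546 bp. The 300 kb just after it, 18450000 to 18750000, held 4 peaks with a median score of 14.12. In the RefSeq table *Eip75B*, an ecdysone-induced gene for a nuclear receptor, precedes *hid* with 24 listed genes between them. The sparse interval at 75C thus began next to the densest window of the arm, and the sparse stretch went on beyond it.

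**Figure D3:**
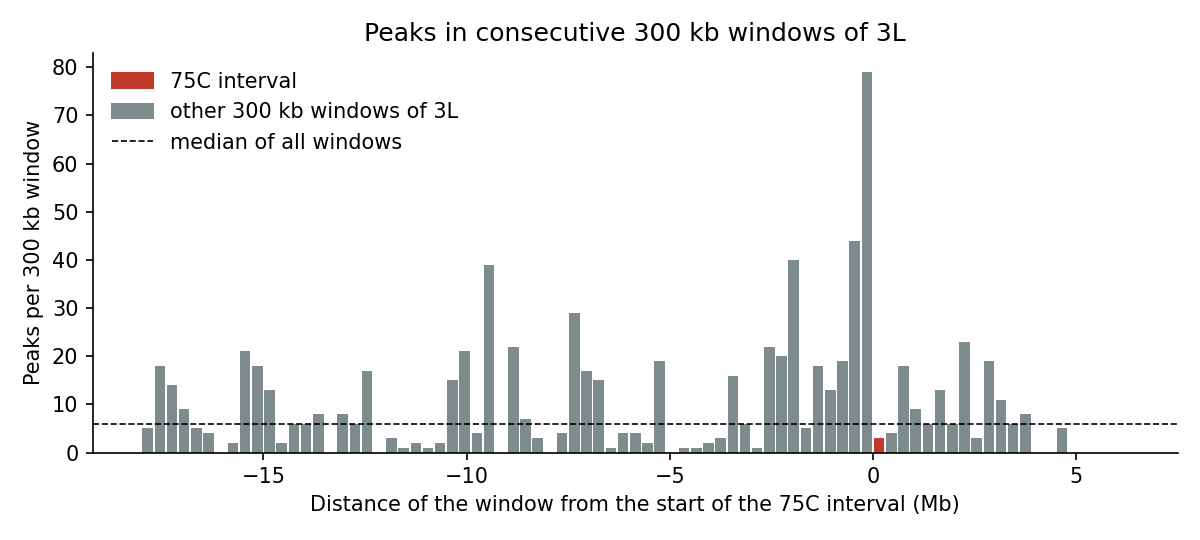
Number of peaks in each 300 kb window of 3L, by the distance of the window's start from that of the 75C interval in Mb; the dashed line is the median of all windows. The 75C interval holds 3 peaks, the window just before it 79, and the median window 6.

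The deposited score ranks each peak within the list. The score of 18.45 ranked 141st of the 814 peaks of 3L, and 81.8% of the other 3L peaks scored lower. The score of 16.39 ranked 198th, above 75.8% of the others. The score of 11.13 ranked 488th, above 36.9% of them and shared by 28 peaks of 3L. Thus 2 of the 3 peaks were in the top 25% of 3L by score, a level that 25.3% of the other 3L peaks reached, and the third was in the lower part of the range. The limit of the top 25% was 16.38, so the second peak, at 16.39, was only just above it. The median score of the 3 peaks was 16.39, against 12.19 for the other 811 peaks of 3L (interquartile range 10.11 to 16.38). With 3 peaks and no value per library, this difference has no test.

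All 3 peaks were narrow. Their median width was 227 bp, against 336 bp for the other peaks of 3L (interquartile range 250.5 to 527.5 bp), whose lower limit was 201 bp. Each of the 3 was narrower than the median of the arm, as 49.8% of the other 3L peaks were. In order along the interval, 15.0%, 33.2% and 8.26% of the others were narrower still. No broad stretch of signal like the peaks of up to 8825 bp in the window before was called at 75C.

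For such narrow peaks, the first and second scored high. Among the 271 other peaks of 3L that were no wider than 273 bp, the median score was 10.4 and the highest 28.1. Only 1 of these 271 scored above the first peak at 75C and 5 above the second, while 88 scored above the third. The width limit of 273 bp is that of the second peak itself and was set after the values were seen, so these ranks are a description. Some 3L peaks only a few bp wider than this limit also scored above the first peak, so its rank depends on the limit. No other limit was tried.

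**Figure D4:**
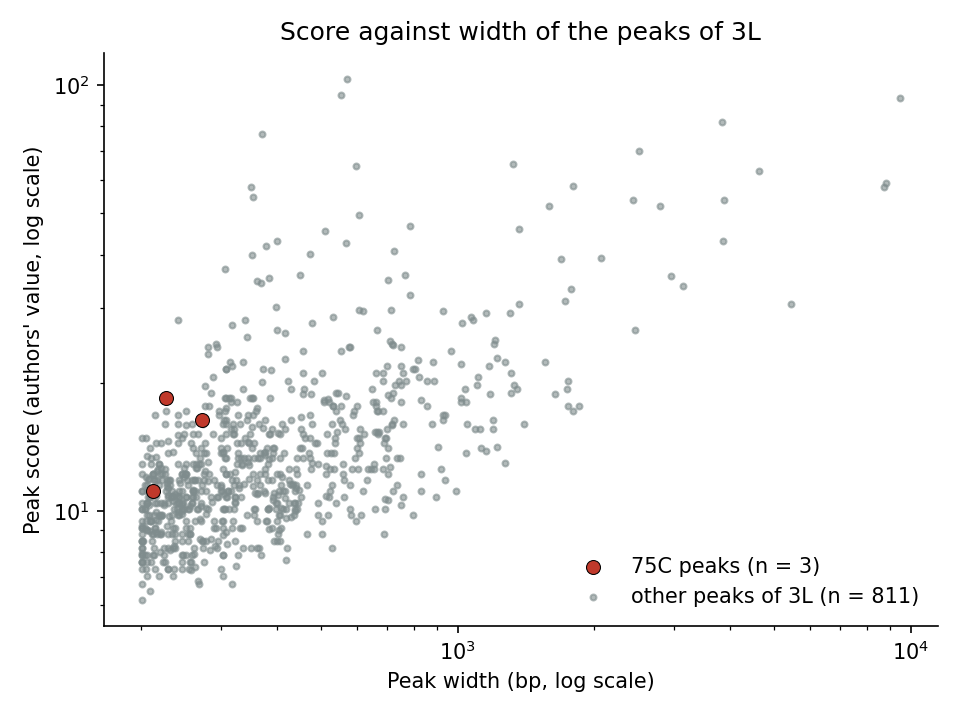
Score (authors' value) against width in bp of the peaks of 3L, both on log axes; large points are the 3 peaks at 75C and small points the other 811. The 75C peaks lie at the narrow side, at 213 to 273 bp. Among 3L peaks no wider than 273 bp, the first and second lie near the top by score. The third lies above 10.4, the median score of the other peaks within that limit. Some peaks a few bp wider score above the first.

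The scores can be read as an enrichment. Across the whole list, repeated score values matched −log10 of the Poisson probability of a whole number of fragments, or more, over a background of 43.9 fragments, with a mean error of 0.00298 over 52 values. A score within 0.01 of such a value was taken to imply that number of fragments (the pileup), and the fold is the pileup over the background. All 3 peaks at 75C were within that tolerance, as were 73.7% of the other peaks of 3L. The scale of the score is inferred from its values and not stated by the authors.

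The implied pileup of the first peak was 115, or 2.62 times the background (exact 95% Poisson interval 2.16 to 3.14, counting error only). For the third it was 96, or 2.19 times (1.77 to 2.67). Both scores were common values of the list, carried by 23 and 99 peaks. The fold of the second peak is less certain. Its score of 16.39 was carried by no other peak, while 36 peaks carried 16.38, the value given by a pileup of 110. At that pileup it would stand at 2.51 times the background (2.06 to 3.02), but its score misses the series by 0.00669, more than the rounding of scores to 0.01 allows, and whether it was scored against another background was not tested.

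The 3 intervals overlap, with that of the second peak resting on an uncertain pileup. Overlap is not a test of difference, and whether the folds of the 3 peaks differ was not tested. The other 598 peaks of 3L on the series had a median fold of 2.28 (interquartile range 2.14 to 2.53) and reached 5.51. The first peak was thus above the upper quartile of these 598 peaks and the third between their lower quartile and median. The second, at its uncertain fold of 2.51, would lie between their median and upper quartile. The 3L peaks off the series have no fold and are not in these quartiles. The weakest 3L peak on the series stood at 1.82 times the background. An empty stretch therefore says only that no site passed the authors' unstated threshold in whole larvae, and weaker enrichment, or binding in a small part of the cells, was not detectable. How much of the empty stretch reads could map to was not examined.

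The 3 peaks counted as 1 group when peaks within 5 kb of each other were joined. Every one of them had another peak within 5 kb, as did 81.8% of the other peaks of 3L. Joining gave 265 regions on 3L, of which 148 were single peaks, 19 held 3 peaks and 56 held more. Among the 19 regions of 3 peaks, the one at 75C was the longest, at 8780 bp, against 1367 to 6745 bp (median 3062.5 bp) for the other 18. The widest of its peaks, 273 bp, was narrower than the widest peak of each of those 18, where that width was at least 277 bp and had a median of 480.5 bp. Its strongest score, 18.45, was exceeded in 4 of the 18 and lay above the strongest score of the other 14; the median strongest score of the 18 was 15.62. These values describe a loose group of narrow peaks, chosen for comparison after the values were seen, and have no test. The rank by length depends on the 5 kb distance, since the gaps of 4340 and 3727 bp within the group lie not far under it.

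The group lay apart from other peaks, by measures chosen after the values were seen. Of the 265 regions on 3L, 15 had at least 100 kb without a peak on each side. Of these, 9 were single peaks, 4 held 2 peaks, 1 held more than 3, and the remaining 1, with 3 peaks, was the group at 75C. The distance of 100 kb is just under the 120.5 kb before the group, and at 150 kb the group was no longer among the 9 regions left. At 50 kb it was 1 of 43, of which 7 held 3 or more peaks. With peaks joined at 1 kb in place of 5 kb, the 3 peaks were separate regions and none of them was set apart in this way. With a joining distance of 20 kb, the group was 1 of 31 regions with at least 100 kb empty on each side. Of these 31 regions, 16 held 3 or more peaks. In each of the other 4 windows that held 3 peaks, the peaks did not join into 1 region at 5 kb. Of the 813 gaps on 3L, 21 were at least as long as the empty part of the interval, the one after the third peak included. That part is cut off by the interval's end, and 0.984% of the gaps were longer than the full stretch of 424.8 kb.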

How the data were processed

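The deposited data are a single peak list with 1 score per peak, made by the authors with MACS on FlyBase release 5, per the file headers. Beside MACS2, the submitters' processing notes mention CASAVA (versions 1.7.0.2 and 1.7.0.3), BWA and BDGP5, without saying what each was used for. Nothing in these sources gives the threshold, the filters, any pooling of replicates or the meaning of the score. Each score is the authors' own value and was used to describe and rank peaks within the list.

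Members were taken by midpoint. Gaps were measured edge to edge, peaks within 5 kb were joined, and 300 kb windows were stepped from the interval's limits over whole windows between the first and last peak of 3L. Every member peak was to be named, as there are no more than 30. The interval, the lists and the reading of the score as Poisson −log10 p were chosen with earlier results of these data known. The background was fitted to scores shared by at least 10 peaks of the whole list. In 20 lists of 3053 scores simulated by the same formula, the background was recovered within 0.00213. At most 10.7% of peaks given a raised background were placed on the series. The simulated folds spanned a narrower range than the data, which reached 5.51 on 3L. The simulation checks the fitting only and cannot show that the authors' score has this scale. No test between groups was run, since the list holds no value per library. Planned displays of promoter and protein sequences, with a search for EcR/Usp motifs, were not made, for want of sequence. The tools were scipy 1.17.1, numpy 2.4.6, matplotlib 3.10.9 and pandas 2.3.3 under Python 3.11.15.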

Additional observations from a re-analysis of the deposited data

How the results depend on the processing

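No paired analysis was possible because the list gives each peak 1 score for the series, and leaving out a replicate was not possible for the same reason. Of 31 alternative values, 26 stayed within 1.5 times the reported value or, for folds, within its interval. That count does not measure stability, since a fall from 3 peaks to 2 was counted as staying within 1.5 times. Some alternatives also could not change a value, such as a wider tolerance for peaks already within 0.01. The number of joined regions, 1 at 5 kb, became 3 with a joining distance of 1 kb, since the peaks lie 3727 and 4340 bp apart; at 20 kb it was again 1. Keeping the top 50% or the top 25% of 3L peaks by score left 2 peaks, since the third drops out. The second peak, at 16.39, was only just above the top 25% limit of 16.38. Taking any overlap in place of the midpoint left 3. With windows stepped by 100 kb, 63.9% held more peaks than the interval, against 63.0% with windows end to end and 68.5% without the windows at the high-coordinate end of the arm. Regions of at least 3 peaks with 100 kb empty on each side numbered 2, but 7 at 50 kb, 1 at 150 kb, 1 with a joining distance of 1 kb and 16 at 20 kb. These and the end windows were examined after seeing the data. Of the alternatives for folds, 2 were added after seeing the data: a tolerance of 0.005, under which the second peak has no fold, and reading the score as the probability of more than k fragments, which gave 2.60, 2.48 and 2.16 times the background. With 3 peaks and unknown depth, none of these comparisons has an error from replicates.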
